A study of Mus musculus with 7 samples.

Results

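The microRNAs miR-148a, miR-148b and miR-152 are a family of 3 short regulatory RNAs that share a seed, the bases near the 5′ end that choose the messenger RNAs to be repressed. They were taken by name, as mmu-miR-148a, mmu-miR-148b and mmu-miR-152, by a rule that uses no measured value, although earlier results of these data were known when the family and the lists below were chosen. They are 3 of the 696 mouse miRNAs on the array, and all 3 were among the 236 that could be tested. Total RNA of whole kidneys from male C57BL/6 mice, 9 to 12 weeks old at purchase, was taken at day 28 and hybridized to 1-colour Agilent miRNA arrays. The study set kidneys after unilateral ureteral obstruction, the tying off of a ureter that leads to kidney fibrosis, against kidneys after a sham operation, in which the ureter was found but not tied. Of the 7 arrays analysed here, 3 carry the label treated (replicates 1, 3 and 4) and 4 the label non-treated (replicates 1 to 4). The deposited record describes both operations without saying which label stands for which, and its title names sham kidneys, so each group is called by its label. A whole kidney mixes tubules, vessels, connective tissue and blood, so fewer cells of a type and less of a miRNA per cell cannot be told apart.

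A mature miRNA is cut from a hairpin and loaded into an Argonaute protein, which it guides to matching sites in the 3′ untranslated regions of messenger RNAs. This family is best known for repressing DNMT1, the enzyme that copies DNA methylation onto new strands, and miR-148 has also been described to repress DNMT3B. In fibrotic tissue, DNA methylation of fibroblast genes is one of the ways in which collagen production is thought to be sustained. Messenger RNAs and DNA methylation were not measured on these arrays.

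The mature sequences are shown because probes for near-identical targets must tell them apart. They come from RefSeq on GRCm38.p6, which matched all 3 names to the -3p arm of the hairpin. They are written 5′ to 3′, with the seed (bases 2 to 8) in capitals.

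miR-148a: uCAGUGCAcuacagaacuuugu

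miR-148b: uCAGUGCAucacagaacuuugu

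miR-152: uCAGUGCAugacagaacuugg

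The seed CAGUGCA was the same in all members, and of 1738 mature sequences in the RefSeq table these were the 3 that carried it. With positions counted from 1 at the 5′ end, miR-148b differed from miR-148a by C9U and U10C, so 20 of 22 bases were identical. miR-152 differed from miR-148a by C9U, U10G and U20G over the 21 bases they share in position, and is 1 base shorter. Between miR-148b and miR-152 the differences were C10G and U20G, with 19 of 21 bases identical. The members therefore differ at the centre and near the 3′ end of the molecule, outside the seed.

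The genes of the members lie on different chromosomes. Mature miR-148a is at chr6:51269829-51269850 on the minus strand, in a hairpin within the span of the predicted gene Gm38821. miR-148b is at chr15:103285185-103285206 on the plus strand, within the span of Copz1, which encodes a subunit of the coat of transport vesicles. miR-152 is at chr11:96850439-96850459 on the plus strand, within the span of Copz2, the paralog of Copz1. The annotation used here gives gene spans without exons, so intron and exon were not told apart. Each hairpin has a gene of the NF-E2 transcription factor family as a neighbour: Nfe2l3 beside miR-148a, Nfe2 beside miR-148b and Nfe2l1 beside miR-152. Each chromosome also holds a Hox cluster, Hoxa, Hoxc and Hoxb in the same order. The position of the family is thus repeated at 3 paralogous places in the genome.

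The arrays differed in brightness between the labels, and this bears on every signed value. Between 232 and 282 miRNAs were detected on non-treated arrays and between 193 and 214 on treated arrays. For the 186 miRNAs detected on all arrays, log2 signal averaged 7.40, 7.52, 6.65 and 7.40 on non-treated replicates 1 to 4, and 6.05, 6.42 and 5.79 on treated replicates 1, 3 and 4. Non-treated replicate 3 was the dimmest of its group. The signals below were therefore scaled by that average, and "log2 signal" means this scaled value. The unscaled log2 mean of 4 spike-in controls was 10.36 to 10.83 on non-treated arrays and 10.21 to 10.76 on treated arrays. The labels thus overlapped in spike-in signal, and the source of the dimmer miRNA signals was not tested. Over the 186 miRNAs, log2 signals correlated at 0.990 to 0.998 within labels and at 0.897 to 0.919 between them. Differences are given as labelled treated minus labelled non-treated. If treated is read as obstructed, this direction is opposite to the one in the study's own table. That table, obstructed over sham, lists miR-148a as up-regulated, whereas here it was lower on treated arrays. The signs in that table thus go with non-treated as the obstructed kidney, though the record does not state which label is which.

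miR-148a was the member with the largest difference between the labels. Its log2 signal was 7.58, 7.36, 6.56 and 7.32 on non-treated replicates 1 to 4, and 5.58, 5.23 and 5.24 on treated replicates 1, 3 and 4. The groups did not overlap, and the lowest non-treated array, replicate 3, stood 0.99 above the highest treated array. The mean was 7.21 ± 0.44 (SD, n = 4) on non-treated arrays and 5.35 ± 0.20 (SD, n = 3) on treated arrays. The log2 fold change was -1.86 with a standard error of 0.25 and a 95% confidence interval from -2.47 to -1.25, a level 3.63-fold higher on the arrays labelled non-treated. limma gave a Benjamini-Hochberg adjusted p of 6.78e-04 over the 236 miRNAs tested, past the threshold of 0.01. With normexp background correction of the raw signals in place of the processed signal, the log2 fold change was -0.74 (limma adjusted p = 0.0162), no longer past the threshold. That correction adds an offset of 50 to each spot, which draws the changes of dim miRNAs toward no change. Ordered from the lowest change, miR-148a was number 15 of 236.

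miR-152 differed in the same direction by a smaller amount. Its log2 signal was 7.42, 7.17, 7.12 and 7.41 on non-treated arrays and 6.83, 6.74 and 6.77 on treated arrays. The groups were separated by 0.29, and the treated arrays lay close together. The mean was 7.28 ± 0.16 (SD, n = 4) on non-treated arrays against 6.78 ± 0.043 (SD, n = 3) on treated arrays. The log2 fold change was -0.50 with a standard error of 0.090 (95% confidence interval -0.72 to -0.28, limma adjusted p = 0.00278), which is 1.41-fold higher on non-treated arrays and number 68 from the lowest change. This call was lost under 8 of 25 alternative settings. Leaving out treated replicate 3 gave -0.48 (limma adjusted p = 0.0135), and leaving out treated replicate 4 gave -0.47 (limma adjusted p = 0.0146).

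miR-148b did not pass the threshold. Its log2 signal was 4.80, 4.80, 4.61 and 4.87 on non-treated arrays and 5.15, 5.20 and 4.96 on treated arrays. All treated values lay above all non-treated values, by a gap of 0.094. The mean was 4.77 ± 0.11 (SD, n = 4) against 5.11 ± 0.13 (SD, n = 3). The log2 fold change was 0.33 with a standard error of 0.084 (95% confidence interval 0.13 to 0.54, limma adjusted p = 0.0121), and its sign turned to -0.82 without scaling, to -0.62 with scaling by spike-in controls and to -0.17 with scaling by the mean of all miRNAs. Leaving out treated replicate 4 gave 0.43 (limma adjusted p = 0.00557), past the threshold.

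**Figure D1:**
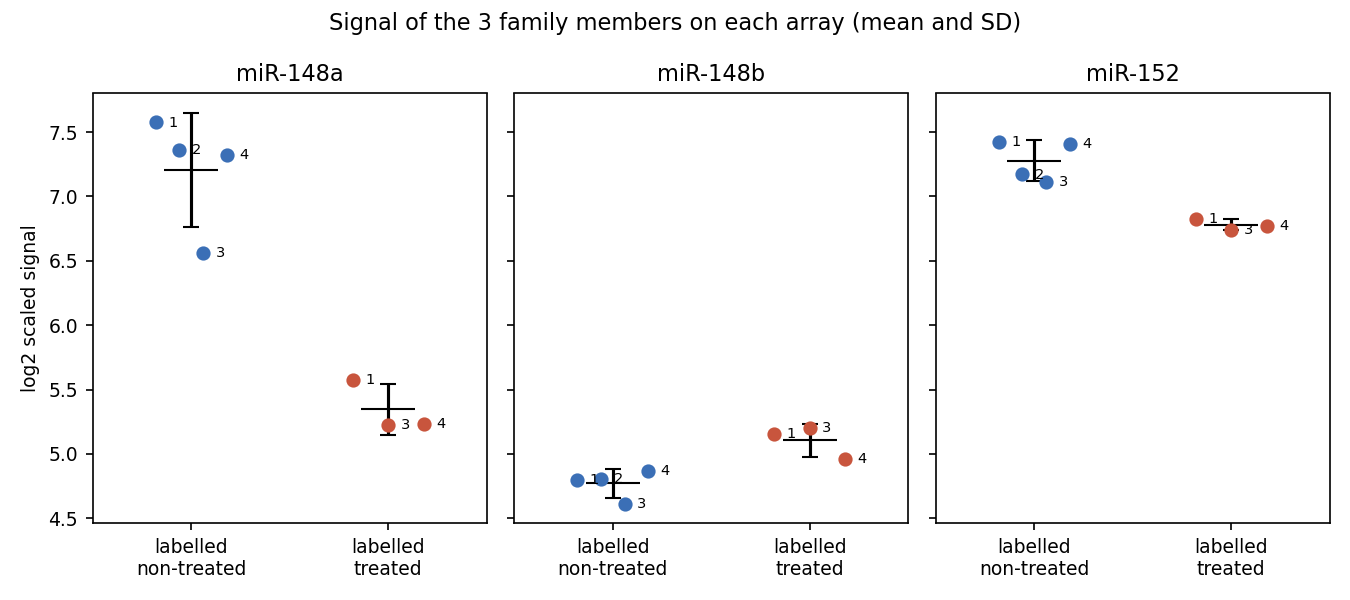
Log2 scaled signal (vertical axis) of miR-148a, miR-148b and miR-152 on each array, by deposited label. Points are arrays with their replicate number, the horizontal line is the group mean and the bar its SD (n = 4 non-treated, n = 3 treated). With this scaling the labels do not overlap for any member. miR-148a and miR-152 are lower on treated arrays, and miR-148b is higher, a direction that turns under 3 of the 7 scalings.

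These counts stand against a background in which many miRNAs differed between the labels. Of the 236 miRNAs tested, 129 (54.7%) passed the threshold, 73 (30.9%) lower on treated arrays and 56 (23.7%) higher, beside 2 of the 3 members, both lower. The split depended on the scaling, with 73 higher and 46 lower by the 75th percentile of all miRNAs, 36 and 121 by their mean, 18 and 166 by spike-in controls, and 7 and 162 without scaling. The groups did not overlap for 156 miRNAs (66.1%), and for all 3 members. Over all miRNAs tested, the median log2 fold change was -0.061. The exact permutation test, 2-sided over 35 splits of the arrays, gave p = 0.0571 for each member, the smallest value that 3 against 4 arrays allow, so it cannot reach 0.05. The arrays are deposited as separate samples, and the paper names 4 mice per group without tying arrays to mice. The p-values measure the spread between these samples, which may be technical where arrays share a mouse.

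**Figure D2:**
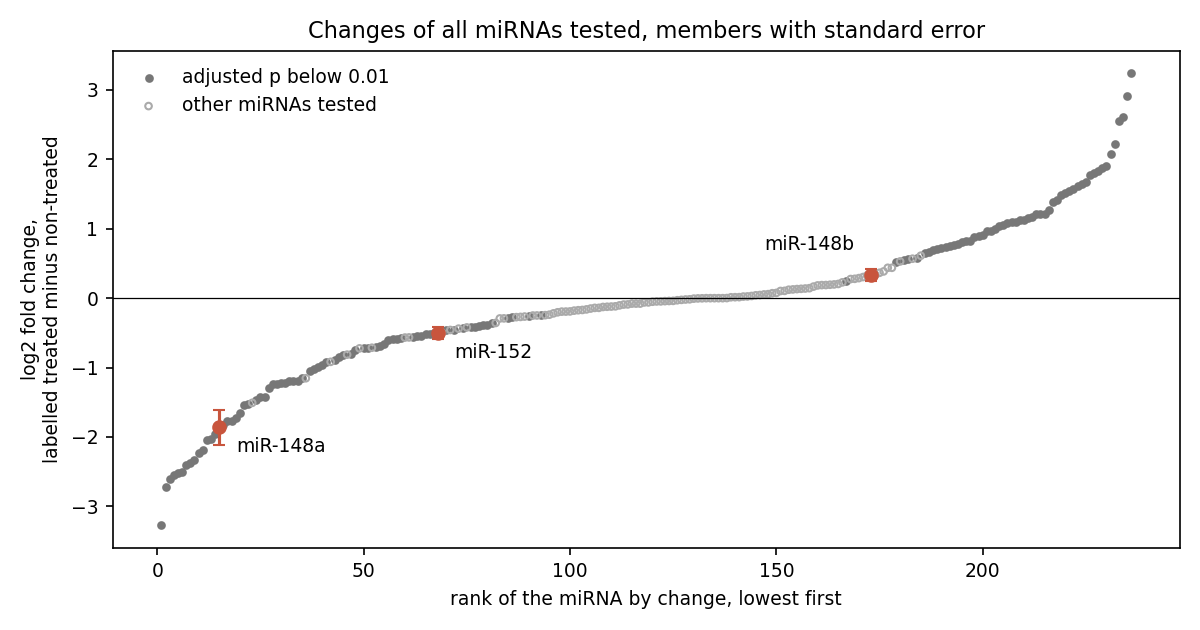
Log2 fold change (vertical axis, labelled treated minus non-treated) of the 236 miRNAs tested, ordered from lowest to highest (horizontal axis). Filled points passed the adjusted p threshold of 0.01, open points did not, and the members carry their standard error. miR-148a lies near the low end at number 15, miR-152 at number 68, and miR-148b, whose sign depends on the scaling, at number 64 from the highest.

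The ratio of a pair of members on the same array does not change when an array is scaled by 1 factor, as in 6 of the 7 scalings compared here, so it shows whether the members changed unequally. Because each miRNA has its own probes, the ratio's own level has no meaning and only its difference between labels is read. The log2 ratio of miR-148a to miR-148b was 2.78, 2.56, 1.95 and 2.45 on non-treated arrays and 0.42, 0.027 and 0.27 on treated arrays. Every treated array lay below every non-treated array. The difference of the means was -2.19, and over the 12 pairs of a treated and a non-treated array it ran from -1.53 to -2.75.

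The log2 ratio of miR-148a to miR-152 was 0.15, 0.19, -0.55 and -0.086 on non-treated arrays and -1.25, -1.51 and -1.53 on treated arrays. The difference was -1.36, with array pairs from -0.70 to -1.73. For miR-148b to miR-152, the log2 ratio was -2.63, -2.37, -2.50 and -2.54 on non-treated arrays and -1.67, -1.54 and -1.81 on treated arrays, a difference of 0.83 with array pairs from 0.56 to 1.08. None of the 3 ratios overlapped between the labels. miR-148a was thus lower on treated arrays relative to both other members, and the ratio of miR-148b to miR-152 was higher there. The 3 ratios are not separate results, since any 1 follows from the other 2. How often ratios of other miRNA pairs separate was not computed, and 66.1% of single miRNAs tested did not overlap. Each ratio had an exact permutation p of 0.0571 and the same value after Benjamini-Hochberg adjustment over the 3 pairs, the smallest possible. With normexp background correction and its offset of 50 in place of the processed signal, the differences were smaller, at -0.86, -0.39 and 0.47 in the same order. Quantile normalization, which does alter ratios within an array, gave -2.26, -1.17 and 1.09.

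**Figure D3:**
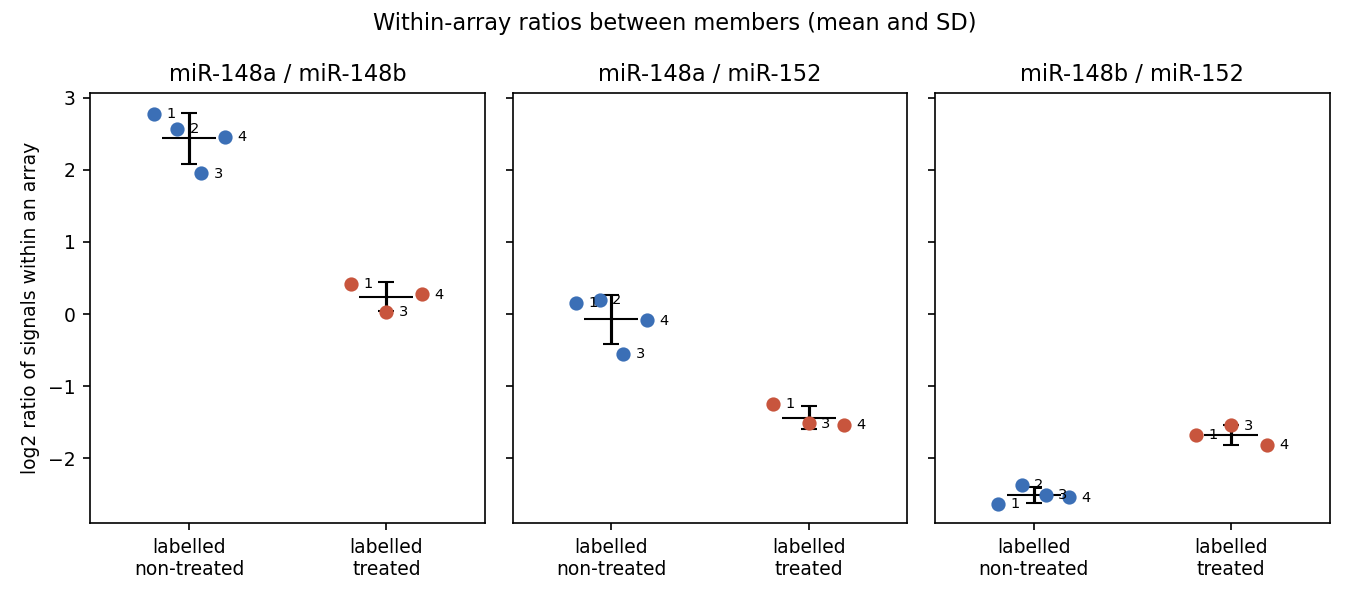
Log2 ratio (vertical axis) of each pair of members within an array, by deposited label. Points are arrays with their replicate number, and lines and bars are the group mean and SD (n = 4 non-treated, n = 3 treated). The labels are separated in each panel, and the position of a panel's values relative to 0 reflects the probes and is not read. The share of other miRNA pairs that separate was not computed.

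The members were also set against all other miRNAs under each scaling. Across 7 scalings the median change of the tested miRNAs (log2) ran from -1.20 without scaling to 0.092. miR-148a was lower on treated arrays and past the threshold in 7 of 7, from -3.02 to -1.59. With its sign reversed, the change of miR-148a in the study's own table is smaller than in any of these 7. miR-152 was lower in 7 of 7, from -1.66 to -0.25, and passed in 6. The scaling behind the study's own table was not among the 7. Most changes in that table are shifted from those here by more than the change of miR-152. Its direction may therefore not be kept with that scaling, but that table does not list miR-152 and this was not tested. miR-148b was higher on treated arrays in 4 and lower in 3, from -0.82 to 0.67. It passed in 3 of them, as higher in 2 and as lower in 1. Measured from the median of all miRNAs under the same scaling, miR-148a was -1.82 to -1.48, miR-152 was -0.46 to -0.32 and miR-148b was 0.38 to 0.77. Apart from low values raised to a floor, 1 factor per array shifts all changes alike. The 6 scalings of that kind therefore repeat 1 result, and only quantile normalization could alter these distances further.

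**Figure D4:**
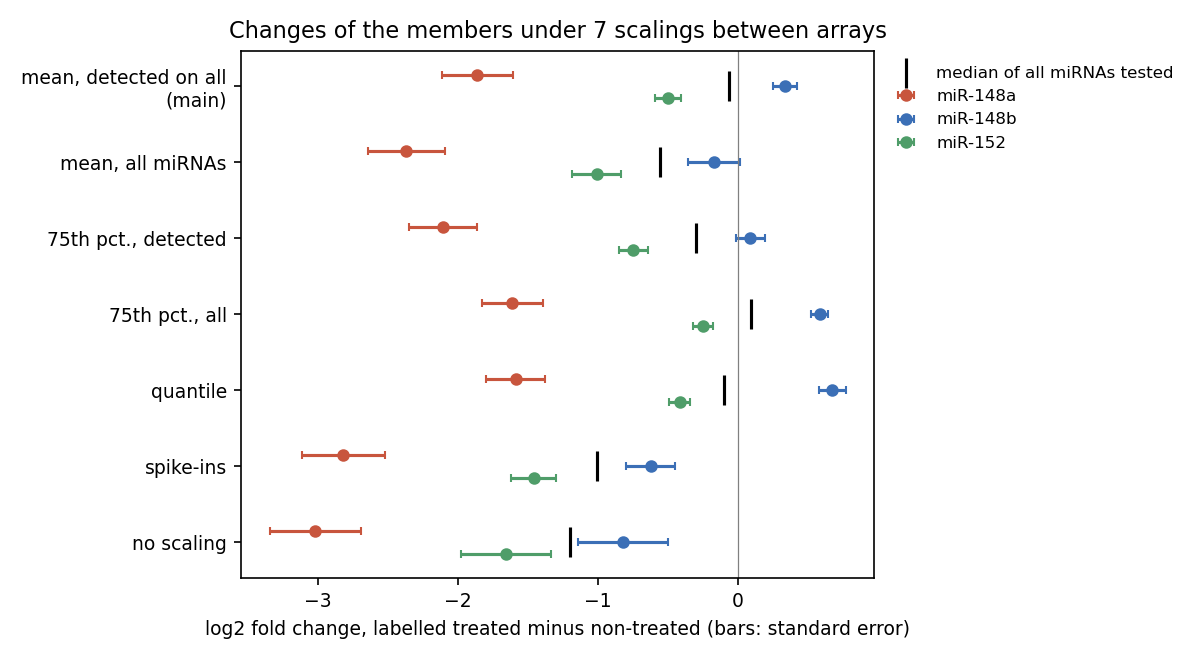
Log2 fold change with its standard error (horizontal axis, labelled treated minus non-treated) of the 3 members under 7 ways of scaling the arrays (vertical axis). The black tick is the median of all miRNAs tested under that scaling. miR-148a and miR-152 lie below the tick and miR-148b above it in all 7, whereas the sign of miR-148b is negative in 3.

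Each member was measured with 2 probes of 10 spots each on every array, and the probes of a miRNA are not replicates, since they bind the same molecule. For miR-148a, mean spot intensity of probe A_54_P1273 was 96.8, 98.8, 31.4 and 81.5 on non-treated arrays and 9.46, 9.67 and 6.46 on treated arrays, before scaling. Probe A_54_P1274 read 202, 183, 57.1 and 170 on non-treated arrays and 19.9, 20.3 and 12.9 on treated arrays. After scaling, the log2 fold changes were -1.91 (standard error 0.24, limma adjusted p = 9.14e-04) and -1.83 (standard error 0.28, limma adjusted p = 0.00208). The probes thus gave differences within 1 standard error of each other, and the brighter read 1.82 to 2.10 times the dimmer on every array. On treated arrays the raw signal of A_54_P1273 was 1.10 to 1.31 times the local background, and that of A_54_P1274 was 1.54 to 1.91 times, so the low values of miR-148a rest on a small excess over background.

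The probes of miR-152 gave log2 fold changes of -0.53 (A_54_P2333, standard error 0.080, limma adjusted p = 0.00197) and -0.48 (A_54_P2334, standard error 0.11, limma adjusted p = 0.0115), the second not past the threshold. Most of the miR-148b signal came from A_54_P1382, which read 7.74 to 10.2 times A_54_P1381. A_54_P1382 read 39.5, 42.9, 20.5 and 41.9 on non-treated arrays and 19.4, 26.4 and 14.3 on treated arrays before scaling. Its log2 fold change after scaling was 0.32 (standard error 0.089, limma adjusted p = 0.0249), and it turned negative without scaling (-0.84) and with the mean of all miRNAs (-0.19). A_54_P1381 was well above background on 1 of 4 non-treated and 0 of 3 treated arrays and was not tested. In all, 3 of the 5 member probes tested passed, where 173 of 366 probes on the array did (47.3%).

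**Figure D5:**
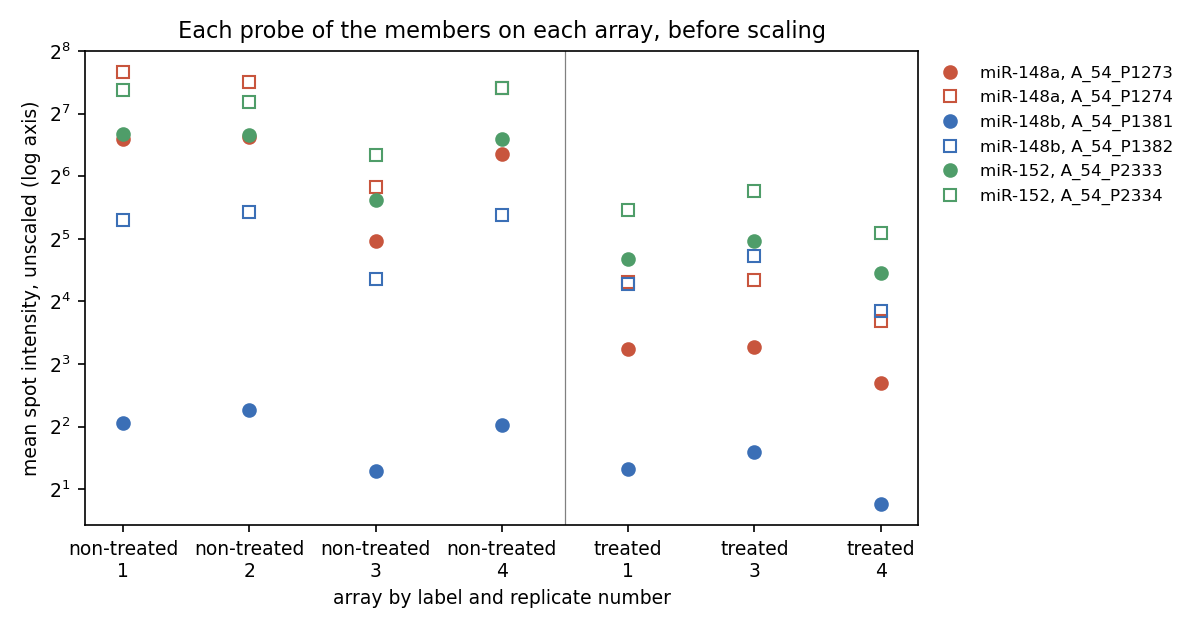
Mean spot intensity before scaling (vertical axis, log scale) of the 6 probes of the members on each array (horizontal axis, by label and replicate number). Colour gives the miRNA and the symbol its probe. Both miR-148a probes and both miR-152 probes are lower on each treated array than on any non-treated array. Levels of different probes are not comparable, and treated arrays were dimmer as a whole.

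The other strand of the miR-148a hairpin, listed on the array as miR-148a*, was not detected on any of the 7 arrays, so no fold is given for it. The array lists no other strand of miR-148b or miR-152 under the names searched.

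The patterns most like each member were sought among the 185 other miRNAs detected on all arrays, as the root mean square difference of log2 signals over 7 arrays after centring each miRNA. They are a description, and no test is attached to them. Because the distance spans both labels, miRNAs near a member have similar fold changes by the way they were chosen. For miR-148a the nearest were miR-100 (0.22), miR-155 (0.23), an miRNA of activated immune cells, and miR-146a (0.25), which is induced by inflammatory signalling. Their log2 fold changes were -1.72, -1.82 and -2.02, and each was lower on treated arrays under all 7 scalings. For miR-152 the nearest were miR-15b (0.11), miR-24 (0.11) and miR-28 (0.11), with log2 fold changes of -0.41, -0.60 and -0.46 that kept their sign under all 7 scalings.

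For miR-148b the nearest were miR-26b (0.10), miR-1274a (0.12) and miR-720 (0.12). The last of these names are now known to be fragments of transfer RNA. Their log2 fold changes were 0.19, 0.28 and 0.39, and each turned negative under at least 3 of the 7 scalings. The relatives themselves were further apart. From miR-148a, miR-152 was number 40 of 185 (0.71) and miR-148b number 127 (1.11), against a median difference of 0.97. From miR-152, miR-148b was number 103 (0.42), against a median of 0.37. Sharing a seed did not place the members among each other's nearest patterns on these arrays.

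Other miRNAs reported to act on DNA methyltransferases moved in both directions. All 10 on the list were detected on all arrays, and 7 passed the threshold, 4 higher on treated arrays and 3 lower. Of all miRNAs tested, 129 of 236 (54.7%) passed, 23.7% higher and 30.9% lower. The median log2 fold change of the list was 0.14, beside -0.061 over all miRNAs tested. Among those known to repress the de novo enzymes DNMT3A and DNMT3B, miR-29b was higher by 1.18 (standard error 0.12, limma adjusted p = 1.59e-04) and miR-29c by 1.49 (standard error 0.059, limma adjusted p = 3.59e-06), whereas miR-29a, at 0.28 (limma adjusted p = 0.15), did not pass. miR-101a, reported to act on DNMT3A, was higher by 0.66 (standard error 0.034, limma adjusted p = 7.49e-06), a sign that turned to -0.49 without scaling and to -0.30 with spike-in scaling. miR-143, also reported to act on DNMT3A, was lower at -1.05 (standard error 0.093, limma adjusted p = 9.01e-05).

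Among those reported to act on DNMT1 directly or through its regulators, miR-185 was higher by 1.57 (standard error 0.085, limma adjusted p = 9.51e-06). miR-342-3p was lower at -2.52 (standard error 0.087, limma adjusted p = 2.87e-06), and so was miR-21 at -2.18 (standard error 0.13, limma adjusted p = 1.30e-05). miR-140 (-0.27, limma adjusted p = 0.0105) and miR-126-3p (-0.0018, limma adjusted p = 0.996) did not pass. The sign of miR-29b, miR-29c, miR-185, miR-143, miR-342-3p and miR-21 was the same under all 7 scalings. Their sizes were not, and without scaling miR-29b was at 0.019, miR-29c at 0.34 and miR-185 at 0.41. miR-29b and miR-29c each passed under 5 of 7 and miR-185 under 6, while miR-140 passed under 4 and miR-126-3p under 3.

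The miRNAs encoded in the Hox clusters did not pass with this scaling: 0 of 4 were called by limma, 0 of 4 had an unadjusted p below 0.05, and the methods' t-test called 0. With the same scaling, limma called 54.7% of all miRNAs tested. miR-10a was at -0.019, miR-10b at 0.071, miR-196a at -0.024 and miR-196b at -0.078, each with a standard error below 0.1. Their signs and calls changed with the scaling, and miR-10a, miR-196a and miR-196b passed under 3 of the 7 scalings and miR-10b under 2, with changes down to -1.18, -1.18, -1.23 and -1.08 in that order.

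Of the cell types a kidney can hold, tubule, mesenchymal, white blood and red blood cell markers differed between the labels, and endothelial markers did not pass the test. The counts stand beside 54.7% of all miRNAs tested that passed, 23.7% higher on treated arrays and 30.9% lower. The levels below are the range over arrays of the log2 of the summed scaled signals of a list. Of 8 kidney tubule markers, 7 were tested and 6 passed, 5 higher on treated arrays, and the summed level was 10.75 to 11.13 on non-treated and 12.25 to 12.33 on treated arrays. miR-215 was not detected, miR-200c did not pass and miR-204 was lower, and miR-200a, miR-200b and miR-429 turned sign under 1 or 2 scalings. All 5 mesenchymal markers were lower on treated arrays, from 11.31 to 11.49 against 9.16 to 9.20, as were all 5 white blood cell markers, from 10.12 to 10.51 against 8.13 to 8.25. Neither endothelial marker passed (0 of 2 by limma, by the methods' t-test or at an unadjusted p below 0.05), with summed levels of 10.79 to 10.93 and 10.80 to 10.89, but miR-126-3p passed under 3 of the 7 scalings and miR-126-5p under 2. Both red blood cell markers tested, miR-144 and miR-451, were higher, from 10.08 to 11.19 against 12.17 to 12.32. The 6 markers of other organs were not detected on any array. The part of these cell types in the differences of miR-148a and miR-152 was not tested.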

How the data were processed

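Kidney RNA was measured on 7 1-colour Agilent arrays, 3 labelled treated and 4 non-treated, all on 1 slide and 1 scan. The scanner files that the authors deposited were made with Agilent Feature Extraction 10.7.3.1. Their processed spot signal is, as deposited, a background-subtracted intensity, not normalized between arrays. A deposited table holds the first spot's intensity for 6 arrays (relative tolerance 1e-05) and, for treated replicate 4, the error estimate of that intensity. The record names an extraction kit for fixed tissue and the methods another kit, so the kit is not settled.

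Of 13920 miRNA spots per array, those without outlier flags were averaged per probe and summed per miRNA. Each array was scaled by its average log2 signal over the 186 miRNAs that every array detected, values under 6.71 (log2 2.75) were raised to it, and log2 was used. The labels were compared with limma 3.58.1 (R 4.3.3) over 236 miRNAs, those detected on all arrays of a label, with Benjamini-Hochberg adjusted p below 0.01. Probes were tested likewise (366 of 1937, floor 9.44). This replaces the t-test of the methods, which was run as an alternative. No spot was saturated. Array signals carry no read depth, and precision is limited by how many arrays there are.

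Within a label, arrays differed (SD of log2 differences, brighter miRNAs) by no less than 1.27 times what their spots alone would give. The floor and the limma comparison were run on simulated miRNA signals with as many raised as lowered. Spot averaging, detection and the scaling used here were not tested in this way. Named are the members, their probes and other strands, 3 miRNAs nearest in pattern to each, and the members of the lists. The members, taken by name, and the lists were chosen with earlier results of these data known.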

Additional observations from a re-analysis of the deposited data

Results flagged for a closer look

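In each label with 4 arrays, the array farthest from the others was compared with a limit that chance passes in about 5% of groups, and 2 of 13 sets of values passed it. Both were on non-treated replicate 3, which averaged 6.65 in log2 signal over the miRNAs that every array detected and whose mean log2 signal of 4 spike-in controls was 10.36, each the lowest of its label and far from the other arrays. miR-148a was also lowest of its label there (6.56) but was not past the limit. Without this array, the log2 fold change was -2.10 for miR-148a, 0.26 for miR-148b and -0.58 for miR-152, and 140 miRNAs passed the threshold in place of 129.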

How the results depend on the processing

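miR-148a kept its direction under 25 alternatives and its call under 24. With normexp and an offset of 50 on median signals it was -0.74 (limma adjusted p = 0.0162), miR-152 was -0.35 (limma adjusted p = 0.0128), 59 miRNAs passed, and the pair differences were -0.86, -0.39 and 0.47. miR-152 kept its direction under all 25 and lost its call under 8: the deposited table (-0.55), that table without treated replicate 4 (-0.37), no detection filter (-0.50), the replicate block (-0.54), the 75th percentile of all miRNAs (-0.25), normexp, and without treated replicate 3 or 4. With sign reversed, most changes in the study's own table differ from those here by nearly the same shift, though not all, with miR-205 and miR-350 among the exceptions. That shift exceeds the change of miR-152, so its direction may not be kept under the study's scaling. This was not tested, since miR-152 is absent from that table and the study's scaling is not among the 25. miR-148b passed with miRNAs detected on all arrays (0.33), quantile normalization (0.67), the 75th percentile of all miRNAs (0.58) and without treated replicate 4 (0.43), and was reversed without scaling (-0.82), with spike-in scaling (-0.62) and with the mean of all miRNAs (-0.17). Probe A_54_P1382 was reversed without scaling (-0.84) and with the mean of all miRNAs (-0.19).

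Leaving out each array in turn gave -2.10 to -1.74 for miR-148a, 0.26 to 0.43 for miR-148b, -0.58 to -0.45 for miR-152 and 112 to 140 calls, with pair differences of -2.36 to -2.08, -1.52 to -1.27 and 0.77 to 0.90. The replicate block gave 94 calls, -1.81 for miR-148a (limma adjusted p = 0.00553) and 0.35 for miR-148b (limma adjusted p = 0.0895). Same-numbered arrays did not deviate together throughout (r = -0.022, -0.021 and 0.19 over miRNAs), so they share a number and no pairing is shown. The deposited table gave 56 calls. The methods' t-test gave 131 calls before and 118 after Benjamini-Hochberg adjustment. The deposited table without treated replicate 4, the slide row as a block (120 calls) and quantile normalization of the pair differences (-2.26, -1.17 and 1.09) were chosen after seeing the data. Low signals over background limit miR-148b and the treated arrays of miR-148a.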

Other observations

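The column medians of the deposited table, which is linear with no centring or scaling, were 0.445, 0.532, 0.470 and 0.346 on non-treated replicates 1 to 4 and 0.322 and 0.276 on treated replicates 1 and 3. The column of treated replicate 4, which holds the error estimate, had a median of 1.0.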
